A study of Mus musculus with 8 samples.

Results

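Cycling leukocytes of the heart were defined as heart barcodes that carried at least 4 UMIs (unique molecular identifiers, each 1 captured transcript) of the 5 cell division genes Mki67, Top2a, Birc5, Cdk1 and Ccnb1 in sum, and no UMI of the endothelial genes Cdh5 and Kdr. A barcode stands for 1 droplet, usually 1 cell. It counted as heart when it had at least 200 genes, at most 10% mitochondrial UMIs and at least 10 hashtag UMIs, of which at least 80% were the heart hashtag. The rule found 60 members among 5324 heart barcodes past these limits and 11130 barcodes in the matrix. A further 3 heart barcodes reached 4 UMIs but carried Cdh5 or Kdr and were left out.

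The study transplanted bone marrow from donors that had had a stroke, or from control donors, into Mx1Cre:c-Mybfl/fl recipient mice, and profiled CD45+CD11b+ cells sorted from their heart and blood by droplet single-cell RNA sequencing. Both groups shared the recipient strain, in which an interferon-responsive Mx1 promoter drives Cre and Cre removes the floxed c-Myb gene, a regulator of blood-forming stem cells. Each group had 2 mice and each mouse gave 1 library, in which the organ was read from a hashtag antibody. Which heart cells of the host remained, and the age of the animals, are not given in the sources used here. Members numbered 12 and 11 in stroke replicates 1 and 2, against 14 and 23 in control replicates 1 and 2.

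Cell division runs through a phase of DNA replication (S) and a phase of preparation and mitosis (G2/M). Replication needs the MCM helicase loaded at origins, nucleotides and polymerases, whereas mitosis needs cyclin-dependent kinase 1, spindle motors and centromere proteins. In the adult heart, resident macrophages are known to renew themselves by local division, in contrast to neutrophils and most circulating monocytes, which leave the marrow after their last division.

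The gate genes lie on chromosome 7 (Mki67, 135689784 to 135716361), chromosome 11 (Top2a, 98992943 to 99024189, and Birc5, 117849251 to 117855743), chromosome 10 (Cdk1, 69335146 to 69352938) and chromosome 13 (Ccnb1, 100778650 to 100786570) of build GRCm38, and all are protein-coding. They are known to be switched on together late in the cycle, and their promoters illustrate a motif pair that is known from such genes: the cell cycle homology region, searched as TTTGAA, and the CCAAT box, searched as CCAAT. Both were searched on both strands in RefSeq promoters of build GRCm38.p6, from 250 bases before to 50 bases after the start. Shown are Top2a and Cdk1, whose windows held both motifs, and Birc5, whose window held neither. The windows lie at chr11:99024140-99024439 on the minus strand for Top2a, at chr10:69352863-69353162 on the minus strand for Cdk1 and at chr11:117848987-117849286 on the plus strand for Birc5. Capitals mark the motifs on either strand, and no match overlapped another.
Top2a: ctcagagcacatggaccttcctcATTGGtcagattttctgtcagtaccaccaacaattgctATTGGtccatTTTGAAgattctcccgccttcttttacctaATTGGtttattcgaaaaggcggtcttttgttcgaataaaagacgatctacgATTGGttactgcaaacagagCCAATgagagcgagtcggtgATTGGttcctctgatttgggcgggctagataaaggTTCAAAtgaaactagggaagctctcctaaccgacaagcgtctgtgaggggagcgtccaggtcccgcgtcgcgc
Cdk1: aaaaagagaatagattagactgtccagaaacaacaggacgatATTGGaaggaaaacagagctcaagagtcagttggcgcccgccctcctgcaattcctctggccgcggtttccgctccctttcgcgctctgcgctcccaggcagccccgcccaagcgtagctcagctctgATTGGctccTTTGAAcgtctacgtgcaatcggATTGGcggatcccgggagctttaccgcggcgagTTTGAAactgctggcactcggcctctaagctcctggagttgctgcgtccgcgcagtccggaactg
Birc5: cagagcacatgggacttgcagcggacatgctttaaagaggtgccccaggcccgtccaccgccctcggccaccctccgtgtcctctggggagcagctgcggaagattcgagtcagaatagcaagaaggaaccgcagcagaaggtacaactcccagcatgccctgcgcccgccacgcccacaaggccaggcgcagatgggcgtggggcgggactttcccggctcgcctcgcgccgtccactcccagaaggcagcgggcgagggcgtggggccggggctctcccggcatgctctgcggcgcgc
The Top2a window held 2 matches to TTTGAA and 6 to CCAAT, and the Cdk1 window held 2 and 3. The TTTGAA motif stood in 3 of the 5 gate promoters, against 17.9% of all 32851 promoters of the table. It stood in 20 of 24 matched promoters of a list of spindle, kinesin and centromere genes, in 1 of 15 of a list of nucleotide supply and DNA synthesis genes and in 2 of 11 of a list of origin licensing genes. CCAAT stood in 17 of 24, 7 of 15 and 9 of 11 of the same lists, against 37.4% of all promoters. A match describes letters only and is no measure of binding.

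The 5 gate genes chose the members, so their levels are given as a description. Mki67, whose protein coats mitotic chromosomes, was seen in 54 of 60 members, with a median of 5.5 UMIs and a highest value of 32. Top2a, which untangles replicated DNA, was seen in 48 members with up to 39 UMIs. Birc5, the survivin subunit of the chromosomal passenger complex, was seen in 43 members with up to 12 UMIs. Cdk1, the kinase that starts mitosis, was seen in 30 members and its partner cyclin B1 (Ccnb1) in 16. Mki67 and Top2a thus supplied most gate UMIs, and in 4 members Mki67 was the only gate gene seen.

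Members just inside the limit were sparse in these genes: 15 members had 4 or 5 gate UMIs, 15 had 6 to 9, 8 had 10 to 19 and 22 had 20 to 78. Just outside, 15 heart barcodes had 3 gate UMIs, 49 had 2 and 290 had 1. Levels of genes outside the gate also differed across this limit. The 9 genes of a list of mitotic kinases and checkpoint proteins summed to 0.0894 UMIs per 10000 gene UMIs in barcodes with 3 gate UMIs, 1.91 in those with 4 or 5 and 6.45 in those with 20 to 78. The list of 27 spindle, kinesin and centromere genes stood at 4.65, 16.1 and 55.5 per 10000 in the same barcodes. Stmn1, which encodes stathmin, a protein that destabilises microtubules, was seen in 66.7% of barcodes with 3 gate UMIs, 73.3% of those with 4 or 5 and 100% of those with 20 to 78. These values are a description, since the barcodes were ordered by related genes.

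**Figure D1:**
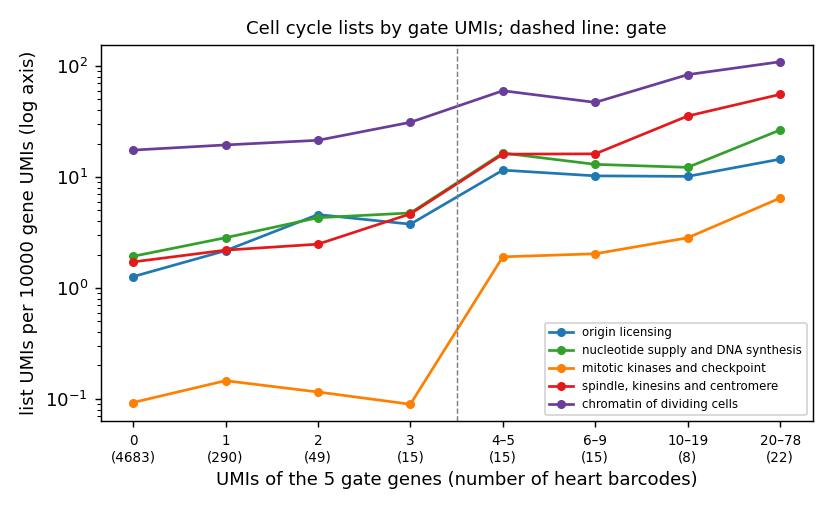
Summed UMIs of 5 lists of cell cycle genes per 10000 gene UMIs (vertical, log axis) in heart barcodes grouped by UMIs of the 5 gate genes (horizontal, number of barcodes in brackets). The mitotic kinase list lies between 0.0894 and 0.146 left of the dashed line that marks the gate and between 1.91 and 6.45 right of it.

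Across all members Stmn1 was seen in 53 of 60, against 10.5% of the other heart barcodes. On the replication side Mcm6, a helicase subunit, was seen in 28 members, against 7.6% of the other heart barcodes. Gmnn, the licensing inhibitor geminin, was seen in 31 members, against 6.82%. Pcna, the sliding clamp of DNA polymerase, was seen in 31 members, against 22.4% of the other heart barcodes. Rrm1, a subunit of ribonucleotide reductase, was seen in 35 members, against 6.9%. On the mitotic side Tpx2, a spindle assembly factor, was seen in 39 members, against 0.912% of the other heart barcodes. Bub1, a kinase of the spindle checkpoint, was seen in 18 members, against 0.057% of the other heart barcodes. The gene for the leukocyte antigen CD45 (Ptprc) was seen in 58 of 60 members, and Itgam, which encodes CD11b, in 26, against 54.3% of the other heart barcodes.

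The 4 libraries held 10067873 to 16513840 gene UMIs in 2020 to 3303 barcodes. Members were deeper than other heart barcodes: their median was 7399.5 and 7519 gene UMIs in stroke replicates 1 and 2 and 14467.5 and 8638 in control replicates 1 and 2, against 4146.5 to 5154 in the rest. A raw count limit is passed more easily by a deep barcode, so the shares and the rates within lineages are also given after thinning every barcode to 3000 UMIs. In the heart barcodes of control replicate 1 the Y-linked gene Ddx3y had 369 UMIs and the female-specific Xist had 1, while the other 3 mice had 1 or 2 UMIs of Ddx3y and 4268 to 4951 of Xist. That mouse thus also differs in sex, and the part of sex in the results was not tested. A total of 14 barcode sequences occurred in more than 1 library, and none of these belonged to a member.

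The share of cycling heart barcodes was lower in both mice with stroke marrow than in both with control marrow, in a design too small to pass a test. Cycling barcodes made up 0.724% (12 of 1657) and 0.81% (11 of 1358) in stroke replicates 1 and 2, against 1.91% (14 of 734) and 1.46% (23 of 1575) in control replicates 1 and 2. Exact 95% binomial intervals, which cover counting error only, ran from 0.375% to 1.44% over the stroke mice and from 0.928% to 3.18% over the control mice. The means were 0.767% ± 0.0607 in stroke mice and 1.68% ± 0.316 in control mice (SD, n = 2 each), a difference of -0.917 percentage points. An exact two-sided permutation test gave p = 0.333, the smallest value that 2 mice against 2 can give, so the difference could not pass a threshold of 0.05. After thinning, which left out 517 and 427 stroke and 137 and 467 control barcodes, the shares were 0.439% and 0.752% in stroke mice, against 1.68% and 1.08% in control mice. Leaving out the deepest 2% of heart barcodes of each library gave 0.64% in stroke and 1.21% in control mice, a difference of -0.57 points. Leaving out the barcodes with markers of 2 lineages, a step added after the data were seen, gave 0.776% in stroke and 1.48% in control mice.

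Blood of the same mice held few cycling barcodes, and there the order of the groups was not kept. They numbered 2 of 1376 and 7 of 1309 in stroke replicates 1 and 2, against 4 of 1138 and 2 of 987 in control replicates 1 and 2. These shares, 0.145% and 0.535% in stroke and 0.351% and 0.203% in control, overlapped, and the exact permutation p was 1. The heart share exceeded the blood share in 4 of 4 mice by a mean of 0.917 percentage points (SD 0.592), with p = 0.125 in an exact two-sided sign-flip test, the smallest that 4 pairs allow. After thinning, the heart share was again higher in 4 of 4 mice, by 0.709 points (p = 0.125, same exact test).

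**Figure D2:**
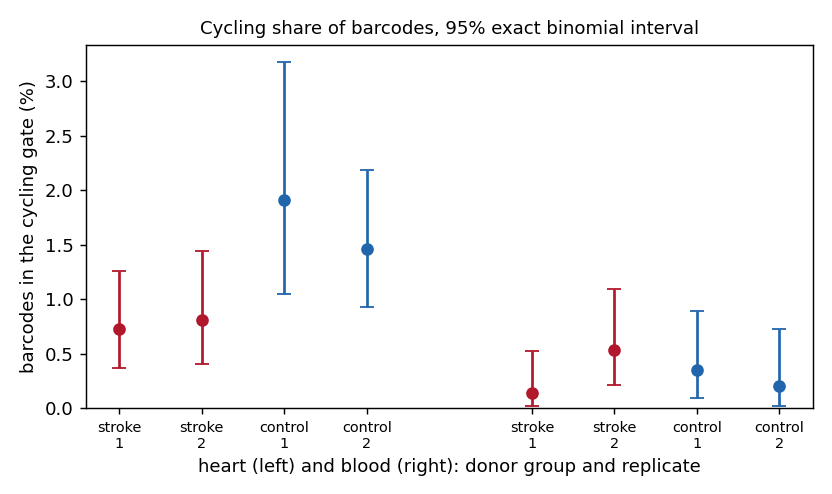
Percent of barcodes in the cycling gate (vertical) for heart and blood of each mouse, stroke in red and control in blue; points are single mice and bars exact 95% binomial intervals. Heart points lie at 0.724% and 0.81% for stroke and 1.91% and 1.46% for control, and all 4 blood points are at or below 0.535%.

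The members were then sorted by the lineage their transcripts carried, using summed UMIs of marker lists: at least 20 for macrophage, 10 for B cell, 10 for T cell and 20 for neutrophil, with the other barcodes called dendritic from at least 4 UMIs of dendritic markers. These limits were set with the values in view. Of the 60 members, 29 were macrophages, 14 B cells, 8 dendritic cells and 2 T cells. A further 6 reached the limits of 2 lineages, and 1 reached no limit. Dendritic markers did not count toward 2 lineages, so a barcode with macrophage and dendritic markers was called a macrophage. In control replicate 2, 1 such macrophage member held 126 macrophage-list and 130 type 2 dendritic-list UMIs. Not one of 529 heart neutrophils was in the gate, with upper exact 95% bounds of 1.9% and 2.29% in stroke and 5.36% and 3.27% in control mice. Their median depth was 2199 to 2282 UMIs over the mice, against 4814 to 5865 in heart macrophages. The raw count limit is harder to pass at that depth. Of 5 lineage genes, C1qa, a complement subunit of macrophages, was seen in 39, Cd79a, the B cell receptor signalling chain, in 19, Flt3, a growth factor receptor of dendritic cells and progenitors, in 13, Cd209a, a lectin of type 2 dendritic cells, in 11, and Ly6c2, a marker of classical monocytes, in 7. Ly6c2 was thus seen in 11.7% of members and 11.3% of the other heart barcodes. At least 3 UMIs of it were held by 2 members, 3.33%, and by 5.79% of the other heart barcodes. Mpo, the granule enzyme of neutrophil precursors, and Ncr1, a receptor of NK cells, were at 0 in all 60. Among the 5264 other heart barcodes Mpo was also at 0 and Ncr1 was seen in 3.12%, so these zeros do not set the members apart.

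RNA of another cell type can also enter a droplet. C1qa was seen with 1 or 2 UMIs in 4 of the 14 B cell members, with a median depth of 14412.5 UMIs, but with 0 to 87 UMIs and a median of 26 in macrophage members, with a median depth of 7519. C1qa was thus seen in 28.6% of B cell members, against 3.68% of the other heart B cells, and what these UMIs stem from was not tested. All 6 mast cell or basophil markers, all 4 platelet markers and 4 of 5 fibroblast markers were at 0 in the members, as were 6 of 7 neutrophil precursor markers. The 5 endothelial markers, of which the rule sets Cdh5 and Kdr to 0, summed to 0.0998 and 0.369 UMIs per 10000 in members of stroke mice, against 1.86 and 1.54 in those of control mice, and the 8 neutrophil markers to 0.699 and 1.38 against 22.1 and 0.363. Single barcodes held most of these UMIs: in control replicate 1 a barcode with macrophage and neutrophil markers held 496 of 510 neutrophil-list UMIs, and 2 barcodes held 37 of 43 endothelial-list UMIs. Their part in the donor group results was not tested.

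Macrophages were the leading lineage of the members in both stroke mice and in control replicate 2. They made up 10 of 12 and 7 of 11 members in stroke replicates 1 and 2, against 2 of 14 and 10 of 23 in control replicates 1 and 2, which is 83.3% and 63.6% against 14.3% and 43.5%. B cells made up 1 and 2 members in stroke mice and 5 and 6 in control mice, and dendritic cells 1 and 0 in stroke mice and 4 and 3 in control mice. The macrophage share differed by 44.6 percentage points, with no overlap between groups and an exact permutation p of 0.333. After thinning it was 100% and 71.4% in stroke mice, against 10% and 50% in control mice, over 5, 7, 10 and 12 cycling barcodes. The lineage makeup of the other heart barcodes moved in the same direction: macrophages were 44.3% and 41.9% of them in stroke mice, against 27.6% and 38.9% in control mice. T cells numbered 0 and 1 in stroke mice and 0 and 1 in control mice. At least 20 gate UMIs were held by 7 of the 29 macrophage, 6 of the 14 B cell and 4 of the 8 dendritic members.

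The rate of cycling was then taken within each lineage. Among heart macrophages it was 1.36% and 1.22% in stroke mice, against 0.995% and 1.63% in control mice, so the groups overlapped (exact permutation p = 1). Among heart B cells it was 1.52% and 1.27% in stroke mice, against 3.42% and 3.19% in control mice, with no overlap (p = 0.333, exact permutation, the smallest possible). Among heart dendritic cells it was 1.96% and 0% in stroke mice, against 4.82% and 3.8% in control mice (p = 0.333, same exact test). After thinning, the B cell rates overlapped, at 0% and 1.47% in stroke mice, against 2.9% and 1.23% in control mice. The thinned macrophage rates were 0.785% and 1.05% in stroke mice, against 0.541% and 1.13% in control mice, and the thinned dendritic cell rates 0% and 0% in stroke mice, against 3.7% and 1.49% in control mice. The unthinned rate of B cells minus that of macrophages in the same mouse was 0.16 and 0.042 percentage points in stroke mice, against 2.43 and 1.56 in control mice, again with p = 0.333 in the exact permutation test. These rates rest on 1, 2, 5 and 6 cycling B cells and 1, 0, 4 and 3 cycling dendritic cells, and each interval within these lineages overlaps that of every other mouse.

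**Figure D3:**
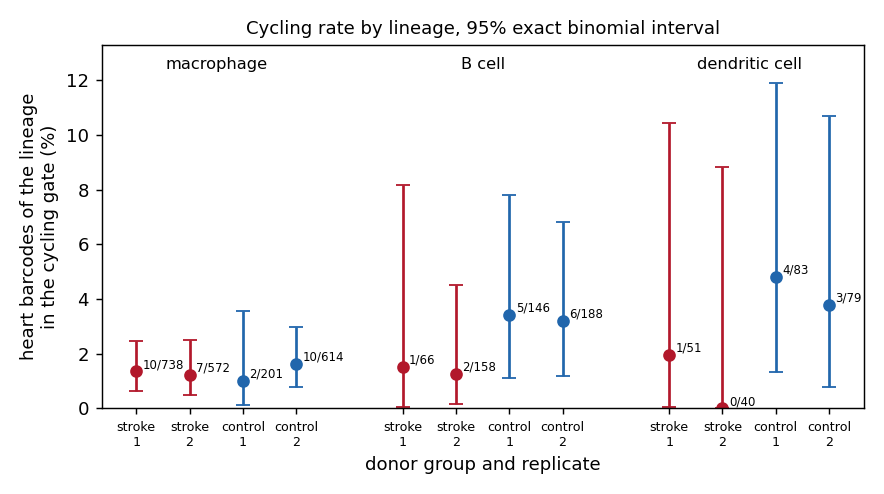
Percent of heart barcodes of each lineage in the cycling gate (vertical) by mouse, with exact 95% binomial intervals and the number of cycling over all barcodes beside each point. Macrophage points lie between 0.995% and 1.63% in all mice, and B cell points at 1.52% and 1.27% for stroke and 3.42% and 3.19% for control.

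The cycling B cells carried transcripts of mature B cells. Ms4a1, which encodes CD20, and Ighm, the mu heavy chain, were seen in 14 of 14, and Ighd, the delta chain of naive B cells, in 11 of 14. Cd5, a marker of B-1a cells, was at 0 in all 14, but also seen in only 1.84% of the other heart B cells. Spn, which encodes CD43, was seen in 21.4% of the cycling and 9.74% of the other heart B cells. Fcrl5, an Fc receptor-like protein, was seen in 71.4% and 31.3%, the transcription factor gene Zbtb32 in 57.1% and 27.02%, Il5ra, an interleukin 5 receptor chain, in 50% and 53.7%, and Ctla4, an inhibitory receptor, in 35.7% and 22.8%, in the same order. Dnase1l3 went the other way, in 14.3% of the cycling and 28.3% of the other heart B cells. The cycling B cells were deeper, and these shares were not thinned. Per 10000 UMIs, Fcrl5 stood at 1.27 in cycling and 1.05 in other heart B cells, and Zbtb32 at 0.791 and 0.701. Il5ra stood at 1.9 and 2.52, Ctla4 at 1.37 and 0.897 and Dnase1l3 at 0.211 and 1.33, in the same order. Itgam, the gene of the sorted antigen CD11b, was seen in 5 of the 14. Ebf1, a transcription factor of the B lineage, was seen in 13, at 10.3 UMIs per 10000 against 15 in the 544 other heart B cells. In blood, unlike the heart with its 14 of 60, most cycling barcodes were B cells, 11 of 15. The others were 1 dendritic cell, 1 T cell and 2 that reached no limit, with 0 macrophages. Of the blood B cells in the gate 2 and 7 came from stroke replicates 1 and 2, against 2 and 0 from control replicates 1 and 2. The lineage makeup of all blood barcodes is not given here, so the 11 of 15 is no rate of cycling.

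Of the 8 cycling dendritic cells, 7 carried Cd209a, the lectin of type 2 dendritic cells, with a median of 5.5 UMIs over the 8 and a highest value of 39. The other, in stroke replicate 1, carried 6 UMIs of Xcr1 and 4 of Clec9a, both markers of type 1 dendritic cells. Their Cd74, the invariant chain that escorts MHC class II, ran from 54 to 234 UMIs with a median of 179. Ccr2, the receptor that guides marrow-derived cells into tissue, was seen in 7 of 8. Cd209a, Xcr1 and Clec9a are on the lists that called a barcode dendritic, so their counts are a description. In the 245 other heart dendritic cells Cd209a was seen in 39.6%, Xcr1 in 2.86%, Clec9a in 9.8% and Ccr2 in 61.6%.

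The matrix also counts 2 transgene features, named agfp and kgfp, and among the lineages described here kgfp had UMIs in control replicate 1 alone. The labels do not say which animals carry them. At least 3 transgene UMIs were found in 7 of 8 cycling dendritic cells, 7 of 29 cycling macrophages, 2 of 14 cycling B cells and 0 of 2 cycling T cells. Other heart barcodes with at least 3 transgene UMIs were 65% to 90% of dendritic cells and 7.43% to 17.6% of macrophages, over the 4 mice. Among cycling macrophages 1 of 10 and 1 of 7 passed this limit in stroke mice, against 1 of 2 and 4 of 10 in control mice.

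Cycling macrophages with at least 3 and with fewer than 3 transgene UMIs are set side by side here as a description. The 7 with at least 3 had 77 to 304 UMIs of Cd74 with a median of 175, and 6 of them carried Ccr2. The other 22 had 0 to 165 UMIs of Cd74 with a median of 4, and 3 carried Ccr2. Cd209a was seen in 3 of the 7 and in 0 of the 22. Per 10000 UMIs, Cd74 stood at 129 in the 7 and 43.6 in the 22, against 99.8 and 84.5 in other heart macrophages with at least 3 and with fewer. H2-Aa, a class II chain, stood at 41.1 and 16.5 in the same 7 and 22, against 33.2 and 27.8.

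Phase was described from lists that held no gate gene, but the gate genes are themselves late genes of the cycle, so the rule favours members in G2/M. S was read from 32 genes of origin licensing, nucleotide supply and DNA synthesis, and G2/M from 36 genes of mitotic kinases, spindle and centromere. Over all members the lists held 2907 G2/M and 2217 S UMIs, a G2/M share of 56.7%. In macrophage members the G2/M lists held 1226 UMIs and the S lists 292, a G2/M share of 80.8%, with 19 of 22 cells above 50% among those with at least 10 phase-list UMIs. In B cell members the G2/M share was 43.9% and 5 of 14 cells were above 50%, and in dendritic members it was 65.4% with 5 of 8. The lists differ in length and level between cell types, so the shares describe these lists, and the part of free RNA in them was not tested.

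Between donor groups the G2/M share over all members was 61.1% and 60.8% in stroke mice, against 53.2% and 58% in control mice, with no overlap and an exact permutation p of 0.333. The direction turned round when the deepest 2% of heart barcodes were left out, a step added after the data were seen, at 66.2% in stroke and 67% in control mice. The macrophage share of the members moves with the pooled value. Within macrophage members it was 70.6% and 85.8% in stroke mice, against 86.9% and 83% in control mice, so the groups overlapped (exact permutation p = 0.667). Within B cell members it was 11.8% and 33.6% in stroke mice, against 50.7% and 38.7% in control mice (exact permutation p = 0.333), from 1 and 2 against 5 and 6 cells. All 7 members with fewer than 10 phase-list UMIs were macrophages.

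**Figure D4:**
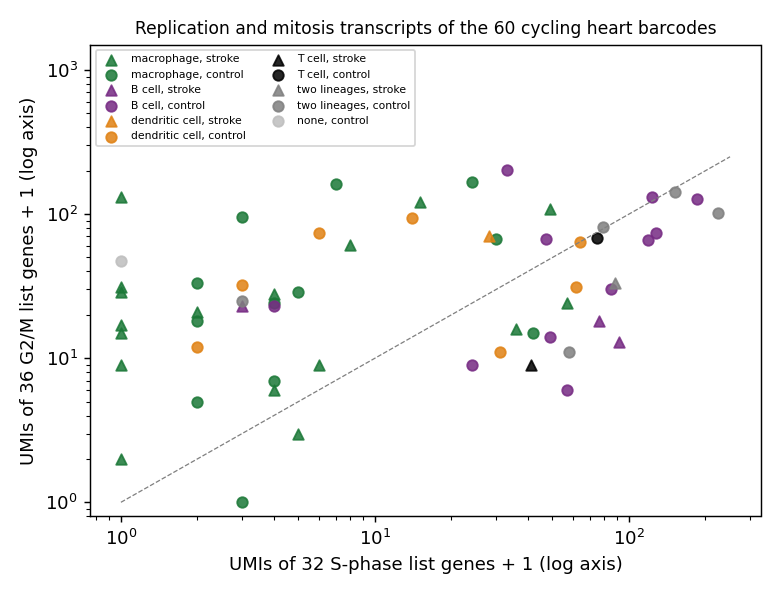
UMIs plus 1 of the 36 G2/M list genes (vertical, log axis) against UMIs plus 1 of the 32 S list genes (horizontal, log axis) for each of the 60 members, coloured by lineage, with triangles for stroke and circles for control mice; equal counts lie on the dashed line. Most macrophages lie above the line, with 80.8% of their phase-list UMIs in G2/M, and most B cells below it, with 43.9%.

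Cycling macrophages were compared with heart macrophages that had no gate UMI, in counts summed per mouse with the mouse as a term in edgeR's quasi-likelihood test. The cycling sums held 10 and 7 cells in stroke mice and 2 and 10 in control mice, and the others 661 and 503 in stroke mice and 177 and 557 in control mice. Of 6920 genes tested, 252 passed (3.64%): 151 were higher (2.18%) and 101 lower (1.46%) in cycling macrophages at a Benjamini-Hochberg adjusted p under 0.05. The lower calls depended more on the setting than the higher ones: 131 higher and 25 lower were called with DESeq2, 123 and 23 with a 90% hashtag limit, 123 and 32 without control replicate 2 and 129 and 56 without stroke replicate 1. The cells were chosen on gate genes of the same libraries. The median log2 fold change over all genes was -0.17. Cell cycle genes are the rule's own contrast: 49 of the 151 higher genes belonged to the gate or to the 6 cell cycle lists, 22 of 22 tested spindle genes among them, and nothing is read from that count. Leading examples, given as levels, were Hist1h1b, a linker histone, at 1008 ± 574 CPM in cycling and 4.52 ± 2.73 CPM in other macrophages (SD, n = 4 mice each), and Cenpf, a kinetochore protein, at 463 ± 163 and 1.94 ± 0.824 CPM in the same order. TTTGAA stood in 53 of the 117 matched promoters of the higher genes, 45.3%, and in 10 of 66 of the lower genes, 15.2%.

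Genes that mark resident and mature macrophages were lower in the cycling ones. Of the 9 genes of a resident macrophage list, all tested, 8 fell and 0 rose, Cd163 being the other one, with a median log2 fold change of -1.23. With the other macrophages limited to the UMI range of the cycling ones, as described further on, 7 of the 8 could be tested and 2 passed, Lyve1 and F13a1. That list shares Lyve1, Timd4, Folr2, Cd163 and Mrc1 with the rule that named a barcode a macrophage, which both sides had to meet. Lyve1, a hyaluronan receptor of resident macrophages along vessels, stood at 356, 395, 0 and 350 CPM in cycling macrophages (stroke replicates 1 and 2, control replicates 1 and 2), against 744, 912, 662 and 814 CPM in the others. It was lower in cycling macrophages in 4 of 4 mice, with a log2 fold change of -1.47 ± 0.25 (SE, edgeR adjusted p = 3.37e-06). Timd4, a receptor for dying cells, stood at 26.1 ± 22.9 CPM in cycling and 139 ± 16.6 CPM in other macrophages (SD, n = 4), a log2 fold change of -2.26 ± 0.49 (edgeR adjusted p = 0.000584). Per cell, Lyve1 was seen in 9 of 29 cycling macrophages and in 54.7% of the 1898 with no gate UMI.

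Genes that the macrophage rule did not use fell too. Apoe, the lipid carrier, stood at 10141, 12060, 4369 and 6497 CPM in cycling macrophages and at 21865, 24406, 17964 and 24560 CPM in the others, in the same order of mice. Its log2 fold change was -1.51 ± 0.14 (SE, edgeR adjusted p = 4.29e-17), and the 2 sets did not overlap. Lyz2, which encodes lysozyme, fell by 1.19 ± 0.15 on the log2 scale (edgeR adjusted p = 2.53e-11). F13a1, a clotting factor subunit, fell by 1.52 ± 0.20, Selenop, a selenium transport protein, by 1.27 ± 0.19, and Wfdc17, a small secreted protein, by 1.68 ± 0.22, each in 4 of 4 mice. C1qa, which the rule did use, fell by 0.95 ± 0.16 (edgeR adjusted p = 1.4e-06).

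Among growth and renewal regulators, 0 tested genes rose, and those that fell included Csf1r, the receptor for the macrophage growth factor CSF1, and Maf, a transcription factor known to restrain macrophage self-renewal. Csf1r stood at 411, 417, 279 and 280 CPM in cycling macrophages, against 702, 811, 768 and 779 CPM in the others. Every cycling value lay below every other value, with a log2 fold change of -1.14 ± 0.23 (SE, edgeR adjusted p = 0.000158). Maf stood at 525 ± 155 CPM in cycling and 1033 ± 90 CPM in other macrophages (SD, n = 4). Its log2 fold change was -0.97 ± 0.21 (SE, edgeR adjusted p = 0.000568).

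Other lists held few calls, but over all genes 3.64% were called, so 0 calls in a short list is no result about it. No gene passed the test in the list of inflammatory cytokines (0 of 9 tested, median 0.20), antigen presentation class II (0 of 7, median -0.14) or type I interferon (0 of 6, median 0.21). Il1b, an interleukin of inflammasome activation, had 478 ± 759 CPM in cycling and 395 ± 40.7 CPM in other macrophages (SD, n = 4). Its edgeR log2 fold change was negative, at -0.63 ± 0.33 (SE). By mouse it stood at 192, 110, 1611 and 0 CPM in cycling and 379, 453, 390 and 358 CPM in other macrophages. The 1611 CPM came from the 2 cycling macrophages of control replicate 1. Tnf, a central inflammatory cytokine, had 254 ± 180 and 245 ± 23.1 CPM (SD, n = 4). Of 14 tested CDK inhibitor and quiescence genes, 7 had a positive and 7 a negative fold change, with 1 called higher and 1 lower. The one called lower was Txnip, which binds thioredoxin, at -0.85 ± 0.23 on the log2 scale (edgeR adjusted p = 0.0109). Tnip3, which dampens NF-kB activity, rose by 2.40 ± 0.31 (edgeR adjusted p = 1.38e-10), at 27.4, 351, 527 and 1365 CPM in cycling and 53.6, 74.8, 115 and 98.5 CPM in other macrophages. Its cycling value was below the other value in stroke replicate 1. Cd209a stood at 0, 0, 341 and 163 CPM in cycling macrophages and 4.82, 8.75, 75.4 and 32 CPM in the others, a log2 fold change of 1.95 ± 0.48 (edgeR adjusted p = 0.00383). The Cd209a call was lost with DESeq2 (adjusted p = 0.207), with no replicate block (edgeR adjusted p = 0.38) and without control replicate 1 (edgeR adjusted p = 0.0907). Both genes are on the type 2 dendritic cell list, and the Cd209a UMIs lay in 3 macrophage members of the control mice, all with transgene UMIs.

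Depth moves with this comparison: medians were 5349.5, 5502, 13934 and 8328.5 UMIs in cycling and 4920, 4758, 5822 and 4800 UMIs in other macrophages. When the others were limited to the UMI range of the cycling ones of the same mouse, a step added after the data were seen, 64 of 1956 genes were called and control replicate 1 kept 9 other macrophages. All 87 genes of the 101 lower calls that could be tested had a negative fold change, but 11 passed. Apoe (-1.12), Lyz2 (-0.998), F13a1 (-1.19), Lyve1 (-1.18) and C1qa (-0.60) were among those that passed, whereas Csf1r (-0.86, edgeR adjusted p = 0.0501), Maf (-0.64), Folr2 (-1.10), Mrc1 (-0.49), Selenop (-0.88) and Tnip3 (2.17, edgeR adjusted p = 0.0501) were not.

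**Figure D5:**
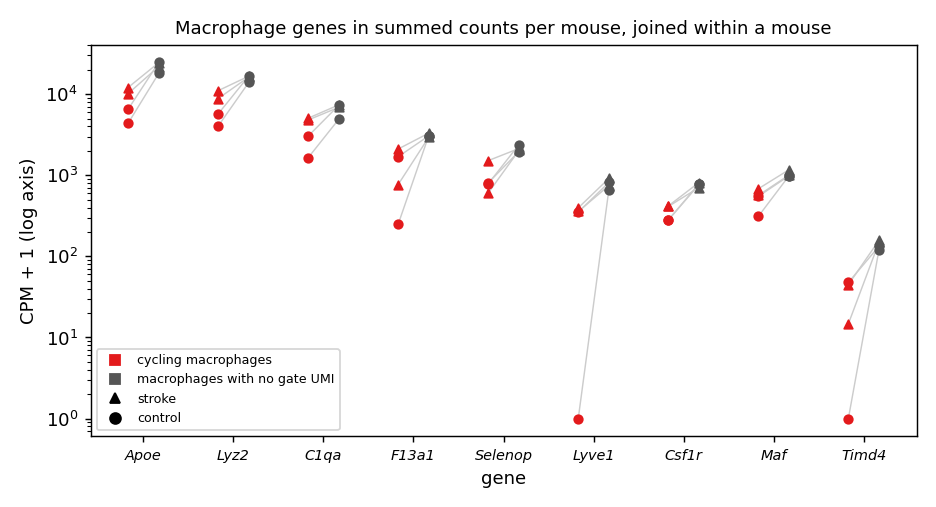
CPM plus 1 (vertical, log axis) of 9 macrophage genes in counts summed per mouse, with cycling macrophages in red on the left of each pair and heart macrophages with no gate UMI in grey on the right, joined within a mouse; triangles are stroke and circles control mice. The red point lies below the grey point in 4 of 4 mice for Apoe, at 4369 to 12060 against 17964 to 24560 CPM.

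Stroke and control were compared across genes in all cycling heart barcodes, summed per mouse. No gene of 3298 tested passed an adjusted p of 0.05 in edgeR's quasi-likelihood test, so 0.0% were called, and 225 had an unadjusted p under 0.05. DESeq2 called 3 and the fit with a replicate block 3. The edgeR count was 66 without stroke replicate 2, 17 without control replicate 1 and 106 without control replicate 2. Mki67 had 784.6 ± 40.9 CPM in stroke and 895 ± 8.36 CPM in control mice, and Stmn1 1121 ± 34 and 1224 ± 86.6 CPM (SD, n = 2 each). The macrophage share of the members moves with this comparison. C1qa had 4127 and 2812 CPM in stroke mice, against 536 and 1951 CPM in control mice, and Cd209a 0 and 77.8 CPM against 187 and 395 CPM. Neither passed the test (edgeR adjusted p = 0.591 and 0.463).

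By list, counts of genes with a positive and a negative log2 fold change can be set beside 1602 and 1696 over all genes, whose median was -0.02. Origin licensing had 0 positive and 8 negative with a median of -0.43, and nucleotide supply and DNA synthesis 1 and 13 with a median of -0.72. Chromatin of dividing cells had 1 and 10, with a median of -0.49, mitotic kinases 0 and 2, with a median of -0.82, and spindle genes 4 and 18, with a median of -0.39. Cyclins had 6 and 4 (median 0.08), the CDK inhibitor and quiescence list 7 and 2 (0.69), and growth and renewal regulators 5 and 1 (0.84). The resident macrophage list had 8 positive and 0 negative with a median of 1.33, inflammatory cytokines 6 and 1 with 2.12, type I interferon 2 and 1 with 1.37, and class II presentation 1 and 6 with -0.35. None of these lists held a called gene, and the macrophage share of the members moves with them.

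The genes of smallest p, chosen after their values were seen, were Hist1h2ap, Rgs1, Cxcl2 and Tnf, each at an edgeR adjusted p of 0.0612. Tnf had 354 and 722 CPM in stroke mice, against 16.1 and 74.6 CPM in control mice, a log2 fold change of 3.54 ± 0.59 (SE). The stroke values lay above the control values, but a single barcode supplied 70.8% of the 65 Tnf UMIs of stroke replicate 2. Cxcl2, a chemokine that attracts neutrophils, had 5318 and 2167 CPM in stroke mice, against 477 and 613 CPM in control mice, and a single barcode supplied 83.1% of its UMIs in stroke replicate 2. Rgs1, a brake on chemokine receptor signalling, had 342 and 422 CPM in stroke mice, against 64.3 and 74.6 CPM in control mice, with 60.5% from a single barcode in stroke replicate 2.

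Within the macrophage members the stroke values of Tnf, Cxcl2 and Rgs1 also lay above the control values, though single barcodes held much of the Cxcl2 and Rgs1. Tnf stood at 397 and 417 CPM in cycling macrophages of stroke mice, against 62 and 140 CPM in those of control mice, and at 266 and 231 CPM against 263 and 219.6 CPM in macrophages with no gate UMI. Cxcl2 stood at 6181 and 3662 CPM in stroke, against 2138 and 840 CPM in control cycling macrophages, and at 2199 and 2191 against 1307 and 1618 CPM in the others. Rgs1 stood at 397 and 592 CPM in stroke, against 186 and 35 CPM in control cycling macrophages. In stroke replicate 2 a single macrophage held 162 of 167 Cxcl2 UMIs and a single one 23 of 27 Rgs1 UMIs. Without the highest macrophage of each mouse, Cxcl2 stood at 42.2 and 1.49 UMIs per 10000 in stroke mice, against 20.9 and 5.7 in control mice, so the groups overlapped. Rgs1 then stood at 1.87 and 1.19 in stroke mice, against 0 and 0.133 in control mice of which control replicate 1 stood at 2.15 with its highest macrophage kept, and Tnf at 2.73 and 3.58 against 0 and 0.743, where control replicate 1 had 1 macrophage left. Control replicate 1 had only 2 cycling macrophages and stroke replicate 2 had 7, so donor groups were not tested within them.

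Hist1h2ap, a replication-dependent histone gene on chromosome 13, had 35.4 and 0 CPM in stroke mice, against 536 and 1631 CPM in control mice. Its reads can be split among near-identical histone genes, so its count is uncertain. In the other heart barcodes it was seen at 0.00726 and 0.00155 UMIs per 10000 in stroke mice, against 0.0347 and 0.157 in control mice. Both stroke values lay below both control values, but they rest on very few UMIs, so this order is a description only.

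Members with markers of 2 lineages can be doublets, droplets that held 2 cells. These 6 members were 4 with macrophage and B cell markers, 1 with B and T cell markers and 1 with macrophage and neutrophil markers. They numbered 0 and 1 in stroke mice and 3 and 2 in control mice, and ran from 5926 to 34933 UMIs with a median of 24936.5. The two-lineage share was 10% of members and 4.98% of the other heart barcodes, and Scrublet, a doublet caller, marked 2 members, of which 1 carried 2 lineages. Its automatic thresholds were uneven between libraries, at 0.52 and 0.509 in stroke and 0.259 and 0.155 in control mice. The part of doublets in the other members was not tested.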

How the data were processed

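The authors deposited raw UMI counts per gene and hashtag for cell barcodes, made with Cell Ranger 7.1.0 on build mm10, per the submitters' processing notes. Barcode suffixes 1 to 4 were matched to the sample numbers in the labels, an assumption on which every comparison of donor groups rests. Counts were used as deposited. Members and gene lists were chosen with earlier results of these data known, and the lineage limits after values were seen; genes named outside the rule below were chosen after their values were seen.

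Shares were compared with exact permutation tests over mice (2 against 2) or sign-flip tests over 4 mice. Whether each mouse had its own marrow donor is not stated, so p-values measure the spread between these samples. Counts were summed per mouse and tested with edgeR 4.0.16 (filterByExpr, TMM, threshold 0.05), checked on simulated data. DESeq2 1.42.0 was an alternative. SE is the log2 fold change divided by the square root of the F statistic. CPM follow TMM scaling. Transgenes were left out of the fits. Scrublet ran in scanpy 1.11.5 with an expected rate of 6%, and its calls were kept in the main results. Gene coordinates came from GENCODE and promoters from RefSeq. Named genes were the gate and lineage genes, Stmn1, the 10 called genes of smallest p in each direction and the 4 most abundant genes of each list, without mitochondrial, ribosomal, sex-linked, haemoglobin and transgene features. The tests of donor groups within cycling macrophages and of heart against blood cycling cells could not be fitted, because a mouse had fewer than 10 barcodes. A result on 1 gene is not reported here.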

Additional observations from a re-analysis of the deposited data

How the results depend on the processing

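The shares of cycling barcodes and of macrophages among them kept their direction in each alternative run, with the gate at 3 or 6 UMIs, thinning, a stricter hashtag, cell filter or doublet step, the deepest barcodes left out and each mouse left out. The G2/M share kept it in each except with the deepest 2% of barcodes left out, where the difference was -0.802 points (the cause was not tested); thinning gave 11.3 points. These and the cell filter were added for that share after the data were seen. Their difference between stroke and control ran from -1.14 to -0.693 percentage points, from 30.01 to 59.2 points and from 2.95 to 7.69 points with a mouse left out, and none of these designs can pass a threshold of 0.05. The number of genes called between stroke and control, 0 as reported, was 3 with DESeq2, 1 with a gate of 3 UMIs, 1 with a 90% hashtag limit and 0 to 106 with a mouse left out: 66 without stroke replicate 2, 17 without control replicate 1, 106 without control replicate 2 and 0 without stroke replicate 1. With 1 mouse left in a group, that mouse is assumed to vary like the others. Same-numbered mice share only a number (correlation of their deviations -0.15); the replicate block gave 3 calls, and the crossed pairing, added after the data were seen, gave 2. Cycling against other macrophages gave 252 calls, 156 with DESeq2, 146 with a 90% hashtag limit, 64 with the others in the UMI range of the cycling ones, 226 with no replicate block and 155 to 257 with a mouse left out, of which 155 was without control replicate 2; with DESeq2, the hashtag limit or that mouse left out, most of the loss fell on the lower calls. The cause of these moves was not tested, apart from the UMI range, where 1956 genes were tested. Reversal was checked for a chosen part of the named genes, in the size factor, low-count filter, DESeq2, block and left-out-mouse runs, and none reversed. Other named genes, such as Il1b and Cd163, were not in that check. The gate, hashtag, doublet and UMI range runs were not in it either. The planned fits within cycling macrophages and of heart against blood cycling cells were not run, since a mouse had fewer than 10 barcodes. Depth limits the lineages: 14 B cells and 8 dendritic cells carry the comparisons.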
